A study of Mus musculus with 12 samples.

Results

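Myc and the Max network are a small family of transcription factors, and 10 of their genes were followed here through MC38 mouse colon cancer cells: Myc, Mycn, Max, Mxd1, Mxd3, Mxd4, Mxi1, Mnt, Mlx and Mga. Members were found by gene symbol in the annotation of the array, which gave 18 probes out of 45281 on the array, for 10 of 19057 named genes. Illumina mouse bead arrays were used, with 4 arrays for each of 3 MC38 lines. The control line is labelled as lacking CEACAM1, an immunoglobulin-like protein through which cells adhere. The other lines expressed its short isoform, CEACAM1-S, and its long isoform, CEACAM1-L, whose longer cytoplasmic tail carries inhibitory tyrosine motifs. All 3 lines were MC38 cells, which are metastatic and come from C57BL/6 mice, and all were grown for 72 h in medium with 10% serum and selection antibiotics. The labels do not say whether a line was 1 clone or a pool, or whether its 4 samples came from separate cultures, so the p-values cover the spread between these samples alone, which may be technical. If each line was 1 clone, the isoform and the clone cannot be told apart.

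MYC does not act alone: it pairs with MAX, and the pair binds the DNA sequence CACGTG, the E-box, near the start of genes for ribosome assembly, metabolism and growth. MXD1, MXD3, MXD4, MXI1 and MNT compete with MYC for MAX, bind the same sequence and bring the SIN3 corepressor, which lowers transcription. MLX is a second partner of MXD1, MXD4 and MNT and joins the network to glucose sensing, and MGA pairs with MAX in a repressive chromatin complex. In the intestine, Myc is a target of Wnt signalling and is widely raised in colorectal tumours.

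The Ceacam1 probe with the highest signal had means of 4.92, 8.33 and 6.55 log2 units in the control, CEACAM1-S and CEACAM1-L lines, and it was detected on all 4 control arrays, just above the detection limit. Of the other 3 Ceacam1 probes, 2 were detected on 0 control arrays and on all arrays of both CEACAM1 lines, and 1 on 0 arrays. Array medians of the raw signal ran from 86.6 to 103 units, and 14717 to 16071 probes were detected per array. The colon epithelial markers Epcam, Krt18, Krt19, Krt20, Vil1 and Cdh17 were detected on 0 of 12 arrays. The epithelial identity in the labels could thus not be read from them. Of the other epithelial markers, Krt8 was detected on all 12 arrays, Lgals4 on 11, Cdh1 on 6, Cdx1 on 3 and Cdx2 on 2. Within each line, 2 arrays had higher maximum raw signals than the other two. These 6 arrays are called set A (control 2 and 3, CEACAM1-S 1 and 4, CEACAM1-L 2 and 3) and the other 6 set B; the labels do not say what the sets are.

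Of the 10 members, 7 were expressed above background on at least 4 of the 12 arrays and could be tested, through 9 of their 18 probes. Mycn, the neural relative of Myc, was detected on 0 arrays with its single probe, and Mxd1 on 0 arrays with any of 3 probes. The single Mxi1 probe was detected on 1 control, 0 CEACAM1-S and 2 CEACAM1-L arrays and was not tested. Of the tested genes, Myc, Mxd3 and Mxd4 were detected on all 12 arrays, and Max, Mnt, Mlx and Mga lay at or near the detection limit, which was 4.73 to 4.87 log2 units depending on the array. All levels below are log2 intensities after background correction and quantile normalization, given as mean ± SD over 4 arrays. Levels are compared between lines for a probe. Levels of different probes are set together only to choose the brightest probe of a gene and in the sums of cell type markers.

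Myc fell in both CEACAM1 lines, and the difference between these lines did not pass. It stood at 8.05, 8.20, 8.69 and 8.56 log2 units in the 4 control arrays, at 7.38, 7.31, 7.10 and 7.42 in CEACAM1-S cells and at 7.39, 7.18, 7.42 and 7.18 in CEACAM1-L cells. Every control array lay above every array of either CEACAM1 line, and the CEACAM1-S and CEACAM1-L arrays overlapped. The means of control, CEACAM1-S and CEACAM1-L were 8.37 ± 0.30, 7.31 ± 0.14 and 7.30 ± 0.13 (SD, n = 4). Against control, CEACAM1-L cells differed by −1.08 ± 0.15 (SE) on the log2 scale, which is 2.11-fold lower (limma, adjusted p = 2.81e-06). In CEACAM1-S cells it was −1.07 ± 0.15, or 2.10-fold lower (adjusted p = 6.18e-06). Between the CEACAM1 lines the difference was −0.01 ± 0.15 (adjusted p = 0.970), with a 95% interval of −0.31 to 0.29. A fall of at least 2-fold past the threshold was seen in 2.15% of all tested genes in CEACAM1-L and in 1.12% in CEACAM1-S cells.

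The Myc signal came from a single probe, because the second Myc probe was detected on 0 arrays. Its raw intensities were 432, 475, 493 and 278 units on the control arrays. They were 302, 240, 160 and 268 units on those of CEACAM1-S and 181, 215, 276 and 212 units on those of CEACAM1-L. Before normalization control 4 thus lay below CEACAM1-S 1; control 4 also had the lowest mean raw signal of the 12 arrays, 208 units, and CEACAM1-S 1 the highest, 391 units. Scaled to a common median in place of quantile normalization, Myc remained lower by −1.09 ± 0.35 in CEACAM1-S cells but no longer passed (adjusted p = 0.0611), and was lower by −1.20 in CEACAM1-L cells (adjusted p = 0.0145). Within set A the Myc differences were −1.14 in CEACAM1-L cells and −1.04 in CEACAM1-S cells, and within set B −1.01 and −1.09.

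**Figure D1:**
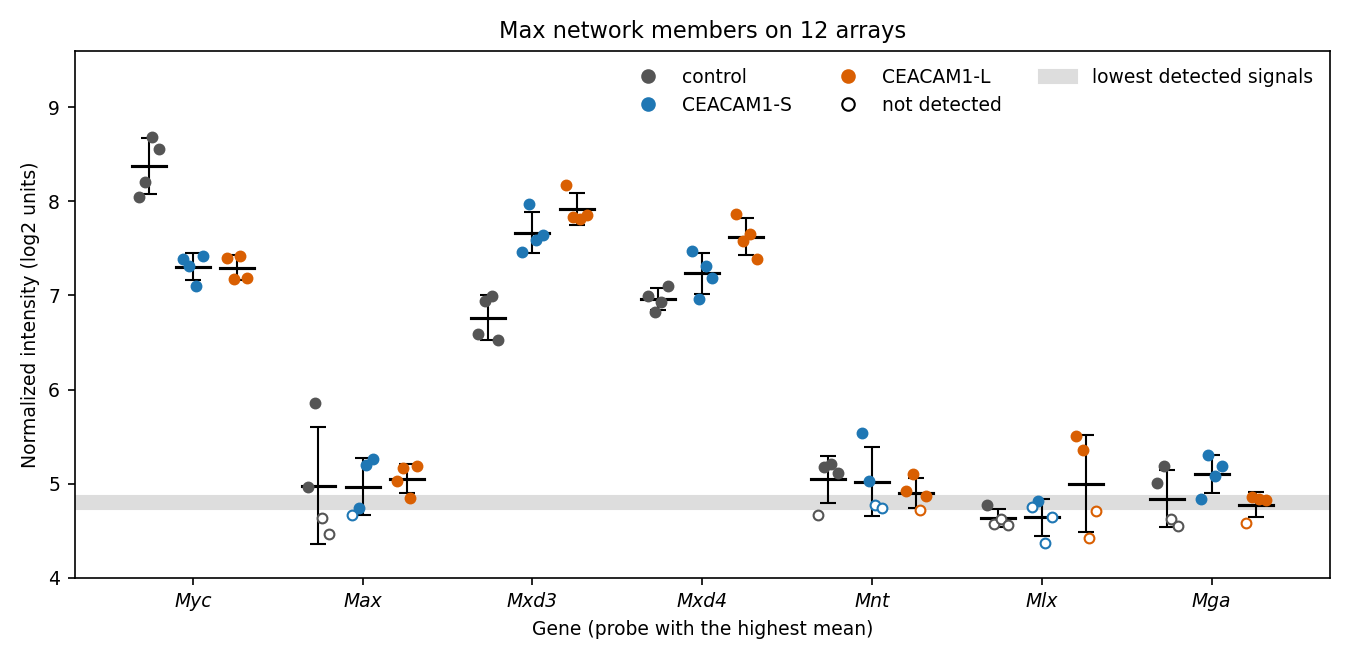
Level of each tested member on each array, in log2 units after background correction and quantile normalization (vertical axis), by gene (horizontal axis). Points are arrays (grey control, blue CEACAM1-S, orange CEACAM1-L; open points were not detected), bars are mean and SD over 4 arrays, and the grey band from 4.73 to 4.87 is the lowest signal detected on each array. The control arrays of Myc all lie above the other 8, those of Mxd3 all lie below them, and Max, Mnt, Mlx and Mga sit at the band.

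Mxd3 moved the opposite way in both lines. MXD3 is a MAX partner that opposes MYC and, unlike most of its family, is known in mouse from proliferating cells in S phase. Its single probe stood at 6.59, 6.94, 6.99 and 6.53 log2 units in control, at 7.46, 7.97, 7.59 and 7.64 in CEACAM1-S and at 8.17, 7.83, 7.81 and 7.86 in CEACAM1-L cells. All 8 arrays of the CEACAM1 lines lay above all 4 control arrays, and the CEACAM1 lines overlapped. The means were 6.76 ± 0.24, 7.67 ± 0.22 and 7.92 ± 0.17 (SD, n = 4). Mxd3 rose by 1.15 ± 0.15 (SE) in CEACAM1-L cells, which is 2.22-fold (adjusted p = 1.74e-06), and by 0.90 ± 0.15 in CEACAM1-S cells, which is 1.87-fold (adjusted p = 8.38e-05). The difference between the CEACAM1 lines was 0.25 ± 0.15, with a 95% interval of −0.06 to 0.57 (adjusted p = 0.244). With scaling to the median neither rise passed, at 1.01 (adjusted p = 0.0580) in CEACAM1-L and 0.87 (adjusted p = 0.237) in CEACAM1-S cells. The rises were 0.85 and 0.58 within set A and 1.46 and 1.22 within set B.

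Mxd4 rose in CEACAM1-L cells. MXD4 is another MAX partner that opposes MYC, known in mouse from differentiating and resting cells. The brightest of its 3 probes stood at 6.99, 6.83, 6.93 and 7.10 log2 units in control, at 7.48, 6.97, 7.31 and 7.18 in CEACAM1-S and at 7.86, 7.58, 7.65 and 7.39 in CEACAM1-L cells. The CEACAM1-L arrays lay above all control arrays, while CEACAM1-S arrays overlapped both other lines. The means were 6.96 ± 0.11, 7.23 ± 0.21 and 7.62 ± 0.20 (SD, n = 4). The rise in CEACAM1-L cells was 0.66 ± 0.15 (SE), or 1.58-fold (adjusted p = 0.000962). In CEACAM1-S cells the difference from control was 0.27 ± 0.15 (adjusted p = 0.199), and CEACAM1-L exceeded CEACAM1-S by 0.39 ± 0.15 (adjusted p = 0.0545), with a 95% interval of 0.08 to 0.69.

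The 3 Mxd4 probes gave differences of the same sign in CEACAM1-L cells but not all passed. In a fit over all 16330 expressed probes, the second probe gave 0.45 ± 0.17 (adjusted p = 0.0392) and the dimmest, detected on 2 control, 3 CEACAM1-S and 4 CEACAM1-L arrays, gave 0.37 ± 0.18 (adjusted p = 0.128). In that fit 31.8% of probes passed in this comparison. In CEACAM1-S cells the 3 probes gave 0.27, 0.04 and 0.17, and 0 of 3 passed, where 19.1% of probes did. With scaling to the median the Mxd4 difference was 0.53 (adjusted p = 0.458), and in set B alone it was 0.58 (adjusted p = 0.101) against 0.74 in set A (adjusted p = 0.0015).

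The genes around Mxd4 were also higher in both CEACAM1 lines. Mxd4 lies on chromosome 5 (GRCm38.p6 chr5:34176580-34187710), and 75 other tested genes start within 5 Mb of it. In CEACAM1-L cells 58 of these 75 rose and 1 fell, with a median difference of 0.61 and quartiles of 0.38 and 0.87, and 36 of the 75 differed by more than Mxd4 did. In CEACAM1-S cells 45 rose and 1 fell, with a median of 0.44, and 51 exceeded the Mxd4 value. Over the whole of chromosome 5, 263 of 624 tested genes rose in CEACAM1-L cells (42.1%) and 50 fell, against rises in 18.2% of all tested genes. The median for chromosome 5 was 0.26 in CEACAM1-L cells and 0.05 in CEACAM1-S cells. The Mxd4 rise thus lay inside the range of its neighbours, and the part of the neighbourhood in that rise was not tested. Around Mxd3 on chromosome 13, 5 of 52 neighbours rose and 11 fell in CEACAM1-L cells, with a median of −0.01. In CEACAM1-S cells 10 of the 52 rose (19.2%, beside 12.2% of all genes) and 5 fell, with a median of 0.00. Around Myc on chromosome 15 (chr15:61985341-61990361), 1 of 23 neighbours rose and 8 fell in CEACAM1-L cells, with a median of −0.15, where 18.0% of all genes fell. In CEACAM1-S cells 1 rose and 5 fell, with a median of −0.02, where 11.4% of all genes fell. The part of these neighbours in the Myc fall was not tested.

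**Figure D2:**
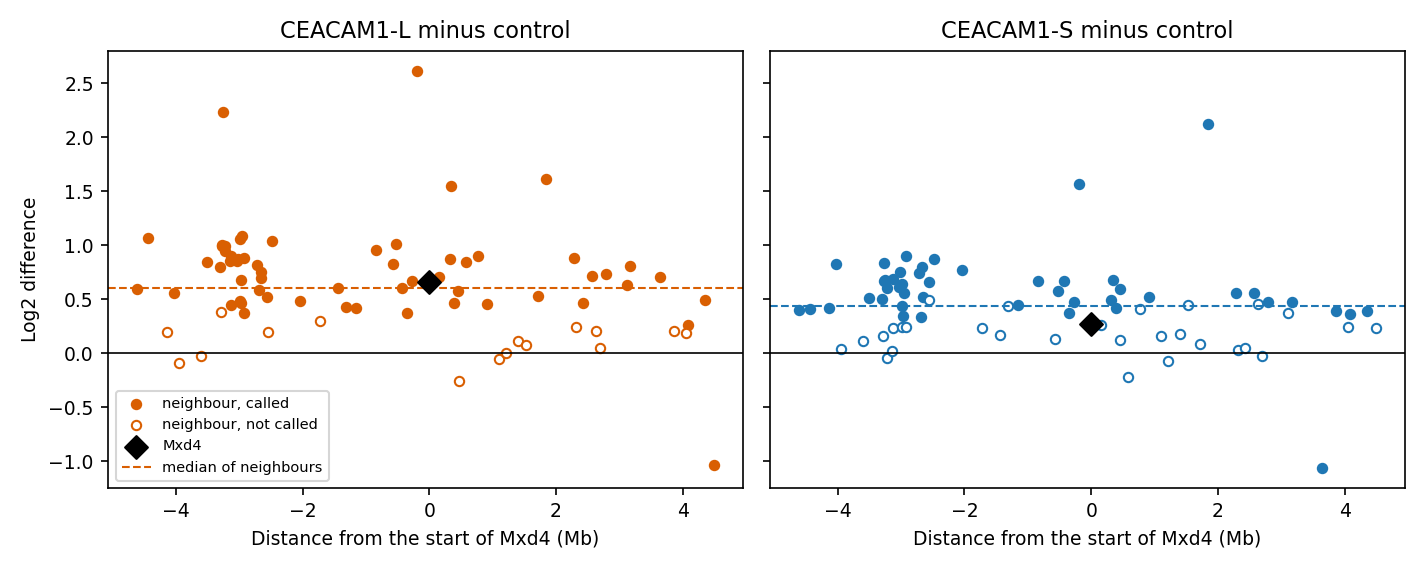
Log2 difference from control (vertical axis) of Mxd4 (diamond) and of the 75 tested genes that start within 5 Mb of it, by distance in Mb along the chromosome (horizontal axis), for CEACAM1-L (left) and CEACAM1-S (right). Filled points passed the threshold, and the dashed line is the neighbours' median, 0.61 and 0.44. Most neighbours lie above 0 in both panels and Mxd4 sits among them.

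No difference in Max, Mnt, Mlx or Mga passed in any comparison, and their levels limit what could be seen. Max, the partner that MYC and MXD proteins share, stood at 4.98 ± 0.62, 4.97 ± 0.31 and 5.06 ± 0.15 in the control, CEACAM1-S and CEACAM1-L lines (SD, n = 4). The single control values were 4.96, 5.86, 4.63 and 4.47, so that 1 array, control 2, lay far above the rest, and Max was detected on 2, 3 and 4 arrays of the lines in that order. The difference in CEACAM1-L cells was 0.07 with a 95% interval of −0.40 to 0.55, and in CEACAM1-S cells −0.01 with an interval of −0.49 to 0.47. These intervals leave room for differences of either sign.

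Mnt, the most widely expressed of the MYC antagonists, stood at 5.05 ± 0.25, 5.02 ± 0.37 and 4.90 ± 0.16 in control, CEACAM1-S and CEACAM1-L cells (SD, n = 4) and was detected on 3, 2 and 3 arrays. Mga stood at 4.84 ± 0.30, 5.10 ± 0.20 and 4.78 ± 0.13 and was detected on 2, 4 and 3 arrays. Mlx stood at 4.63 ± 0.10, 4.64 ± 0.20 and 5.0 ± 0.52 and was detected on 1, 1 and 2 arrays. Its CEACAM1-L values were 5.51, 5.35, 4.42 and 4.71, of which the first and second lay above the detection limit and above all other values of that probe. The Mlx difference in CEACAM1-L cells was 0.37 with an interval of −0.06 to 0.79 (adjusted p = 0.173), and without CEACAM1-L replicate 3 it passed at 0.56. Of the further probes, a second Mga probe and a second Mlx probe were detected on 0 arrays and the remaining Mlx probe on 1. That array was CEACAM1-L 3, where the remaining probe stood at 5.43 and the tested probe at 4.42, its lowest CEACAM1-L value.

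Counted over the network, 3 of 7 tested members passed in CEACAM1-L against control, where 36.2% of all 9100 tested genes did, with Mxd3 and Mxd4 higher and Myc lower. In CEACAM1-S against control 2 of 7 passed, Mxd3 higher and Myc lower, against 23.6% of all genes. Between CEACAM1-L and CEACAM1-S 0 of 7 passed at an adjusted p under 0.05, against 26.2% of all genes. The only member under 0.05 before adjustment there was Mxd4, which passed under 8 of 24 alternative settings. The arrays of the groups did not overlap for 3 of 7 members in CEACAM1-L against control (32.6% of all genes), for 2 of 7 in CEACAM1-S against control (23.5%) and for 0 of 7 between the CEACAM1 lines (25.8%). The median log2 difference of the members was 0.07, 0.01 and 0.09 in these 3 comparisons, beside −0.01, −0.01 and −0.02 for all genes. The share of members that passed was thus close to the background in the comparisons with control. The CEACAM1 lines share their control arrays, so both comparisons with control move together with those 4 arrays. Across the 12 arrays Myc correlated with Mxd3 at r = −0.84 and with Mxd4 at −0.63, and Mxd3 with Mxd4 at 0.68. These correlations describe 12 arrays that share 3 lines and a common normalization.

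**Figure D3:**
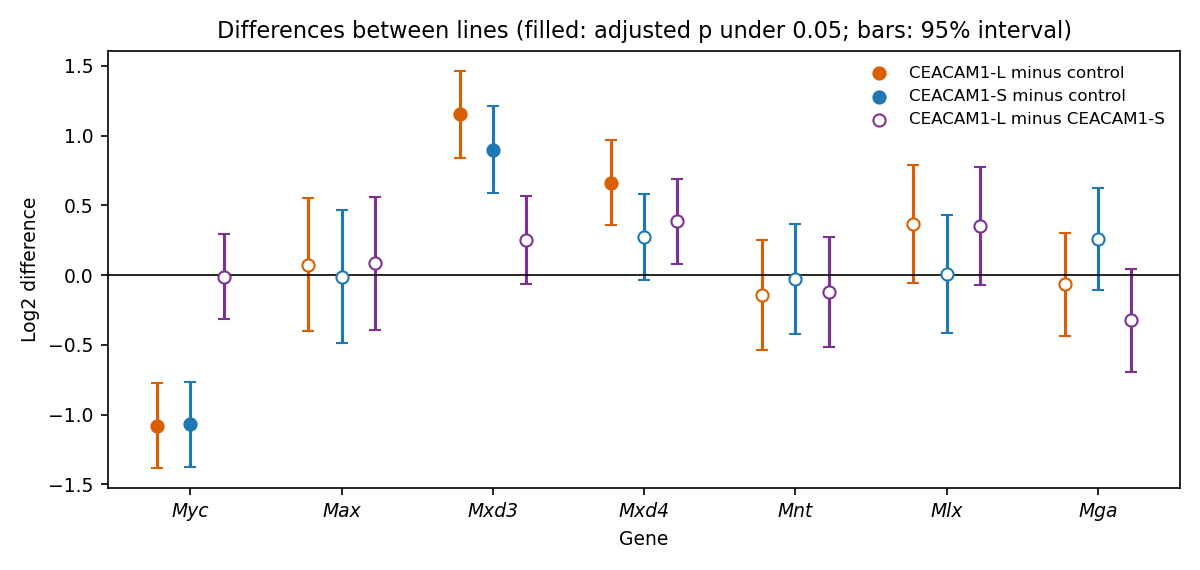
Log2 difference (vertical axis) of each tested member (horizontal axis) between lines, with 95% intervals, for CEACAM1-L minus control (orange), CEACAM1-S minus control (blue) and CEACAM1-L minus CEACAM1-S (purple). Filled points passed an adjusted p of 0.05: Myc at −1.08 and −1.07, Mxd3 at 1.15 and 0.90, and Mxd4 at 0.66 in CEACAM1-L minus control.

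Promoters of several members carry the E-box that the network itself binds. Windows from 250 bases before to 50 bases after an annotated transcript start, taken from RefSeq (GRCm38.p6), were available for 9 of the 10 members, Myc not among them. The 6 letters CACGTG, which read the same on both strands, occurred in 4 of the 9: Max, Mxd4, Mnt and Mlx. They occurred in 12% of the 7434 tested genes with a window and in 8.09% of all 27025 genes of the table. Counted from the transcript start, the motif begins at −219 in Mxd4, −123 in Mnt, −40 in Mlx and −3 in Max. The stretches are shown 5′ to 3′ on the strand of the gene, with the motif in capitals, because these are the members whose own promoters hold the sequence that MYC and MXD proteins share. Mxd3, whose level moved most among the antagonists, has 0 motifs in its window, and the stretch given is the end farthest from its start.
Mxd4, chr5:34187711-34187960, minus strand: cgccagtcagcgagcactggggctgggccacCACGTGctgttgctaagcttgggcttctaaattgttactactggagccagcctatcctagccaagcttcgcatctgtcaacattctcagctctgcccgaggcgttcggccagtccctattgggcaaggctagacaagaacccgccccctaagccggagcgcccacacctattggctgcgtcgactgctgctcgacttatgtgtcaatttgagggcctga
Max, chr12:76962234-76962263, minus strand: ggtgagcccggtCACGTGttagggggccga
Mnt, chr11:74830789-74830818, plus strand: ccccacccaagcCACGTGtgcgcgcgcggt
Mlx, chr11:101087238-101087267, plus strand: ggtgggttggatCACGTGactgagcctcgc
Mxd3, chr13:55329901-55329981, minus strand: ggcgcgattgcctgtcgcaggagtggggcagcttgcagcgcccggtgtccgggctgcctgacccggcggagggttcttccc

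A match describes these letters alone, and binding was not measured here. Some annotated starts lie inside a longer transcript of the same gene, as for Max, Mnt, Mlx and Mxd3, so the windows need not be the promoters used in MC38 cells. Of the 4 members with the motif, Mxd4 passed in CEACAM1-L cells, and Max, Mnt and Mlx passed in 0 comparisons.

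Genes known as activated by MYC mostly fell in CEACAM1-L cells, and fewer of them passed in CEACAM1-S cells. The list holds 74 genes from general knowledge of MYC targets, of which 60 were tested, and Myc itself was left out. In CEACAM1-L against control 37 of the 60 fell, 3 rose and 20 did not pass, where 18.0% of all tested genes fell and 18.2% rose. The median log2 difference of the list was −0.44 beside −0.01 for all genes. In CEACAM1-S against control 20 fell and 3 rose, with a median of −0.20, where 11.4% of all genes fell. Between CEACAM1-L and CEACAM1-S 22 were lower and 2 higher in CEACAM1-L, with a median of −0.22, where 12.9% of all genes were lower. The Myc difference between the CEACAM1 lines, −0.01, had not passed. Slc29a2, a nucleoside transporter of the list, went undetected on all 4 CEACAM1-L arrays, and with its difference set at the bound of at least 1.26-fold the medians against control and against CEACAM1-S were −0.42 and −0.22.

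The count depended on the normalization. With scaling to the median 13 genes of the list were lower and 1 higher in CEACAM1-L against control, 0 of 60 passed in CEACAM1-S against control, and 2 were lower in CEACAM1-L cells than in CEACAM1-S cells. That scaling shifted the median of all genes to −0.11, −0.03 and −0.11, and the list medians were −0.58, −0.22 and −0.34. In set A alone 37, 19 and 23 genes of the list were lower in the 3 comparisons, and in set B alone 25, 4 and 10. Of all 9100 tested genes, 1652, 937 and 1327 were lower in set A and 774, 384 and 322 in set B.

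Of 26 tested genes for ribosomal RNA processing and ribosome assembly, 20 fell and 0 rose in CEACAM1-L cells, with a median of −0.57. In CEACAM1-S cells 11 of the 26 fell and Ppan rose, with a median of −0.34, and 15 were lower in CEACAM1-L cells than in CEACAM1-S cells. Of all tested genes, 18.0%, 11.4% and 12.9% were lower in these 3 comparisons. The division of the list by role was made after its values had been seen.

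Pes1, Bop1 and Rrp12 had the largest falls of the list in CEACAM1-L cells. PES1 and BOP1 are subunits of a complex that matures the large ribosomal subunit. Pes1 stood at 8.18, 7.73, 7.79 and 7.10 log2 units in control, at 7.22, 7.11, 7.14 and 7.28 in CEACAM1-S and at 4.89, 4.95, 5.28 and 6.39 in CEACAM1-L cells. All CEACAM1-L arrays lay below all others, with CEACAM1-L 4 nearest to them, and control and CEACAM1-S arrays overlapped. Pes1 fell by −2.32 ± 0.25 (SE) against control (adjusted p = 6.68e-08) and by −1.81 ± 0.25 against CEACAM1-S cells (adjusted p = 5.41e-06), and its CEACAM1-S difference from control was −0.51 (adjusted p = 0.145). Bop1 fell by −1.46 ± 0.19 in CEACAM1-L cells (adjusted p = 1.55e-06), and a second Bop1 probe gave 0.12 ± 0.18 (adjusted p = 0.670). The second probe had a control mean of 4.86, at the detection limit, and could hardly have shown a fall. The Bop1 fall thus rests on the brighter probe alone. Rrp12, known in yeast as a factor in the export of ribosomal subunits, fell by −1.37 ± 0.12 (adjusted p = 2.09e-09).

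Nop56, a core protein of the box C/D particles that methylate ribosomal RNA, fell in steps across the lines. It stood between 12.07 and 12.26 log2 units on the control arrays, between 11.37 and 11.55 on those of CEACAM1-S and between 10.84 and 11.07 on those of CEACAM1-L, and the 3 lines did not overlap. The difference from control was −1.23 in CEACAM1-L cells and −0.69 ± 0.09 in CEACAM1-S cells (adjusted p = 1.19e-06), and −0.53 between the CEACAM1 lines (adjusted p = 4.47e-05). Genes named in the rest of the account of this list were chosen after their values had been seen, apart from Ndufaf4 and Dusp2. Nop58, the partner of Nop56, had differences of −1.28 and −0.52, and Ncl, the nucleolar protein nucleolin, −1.23 in CEACAM1-L cells and −0.37 in CEACAM1-S cells (adjusted p = 0.10 for the latter). Npm1, nucleophosmin, fell by −0.56 and −0.36. Ppan, a processing factor of the large subunit, went opposite ways, falling by −0.39 in CEACAM1-L cells and rising by 0.30 in CEACAM1-S cells. Wdr43 fell by −0.47 in CEACAM1-S cells alone of the 2 comparisons with control, and it was higher by 0.36 in CEACAM1-L cells than in CEACAM1-S cells (adjusted p = 0.00353).

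Among 12 tested genes of nucleotide, polyamine, carbon and iron metabolism, 8 fell and 2 rose in CEACAM1-L cells, and 4 fell and 1 rose in CEACAM1-S cells. Of all tested genes, 18.0% fell and 18.2% rose in CEACAM1-L cells, and 11.4% fell and 12.2% rose in CEACAM1-S cells. Odc1, the first enzyme of polyamine synthesis, fell by −0.53 in CEACAM1-L cells and −0.60 in CEACAM1-S cells. Ldha, which makes lactate from pyruvate, fell by −0.52 in each, and Tfrc, the transferrin receptor, by −0.91 and −0.50. The serine hydroxymethyltransferases Shmt1 and Shmt2 fell in CEACAM1-L cells by −0.73 and −0.62, and gave 0.00 and −0.13 in CEACAM1-S cells, where they did not pass. The difference between the CEACAM1 lines passed for both, at −0.74 and −0.49. Pfkm, a phosphofructokinase of glycolysis, rose by 1.23 in CEACAM1-L cells and 0.42 in CEACAM1-S cells, and Cad, which starts pyrimidine synthesis, rose by 0.45 in CEACAM1-L cells. Cad is among the 75 neighbours of Mxd4 on chromosome 5, whose median difference was 0.61 in CEACAM1-L cells. The part of its position in the Cad rise was not tested.

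The other genes of the list moved less evenly. Of 9 genes for translation, RNA modification and chaperones, 4 fell in CEACAM1-L cells and 1 in CEACAM1-S cells, beside 18.0% and 11.4% of all genes. Of 8 cell cycle and DNA genes, Ccnd2, cyclin D2, fell by −0.67 and −0.43, and Ung, a DNA repair glycosylase, rose by 0.33 and 0.42. Ung lies on chromosome 5, where 42.1% of tested genes rose in CEACAM1-L cells and 19.4% in CEACAM1-S cells. Cdk4 gave −0.15 and −0.14 and did not pass. Of the remaining 5, Ndufaf4, an assembly factor of respiratory complex I, fell by −0.80 ± 0.11 (SE) in CEACAM1-S cells (adjusted p = 8.63e-06) and by −1.01 in CEACAM1-L cells. Dusp2, a phosphatase of MAP kinases, fell by −0.65 ± 0.18 in CEACAM1-S cells (adjusted p = 0.0101). Its probe was detected on 3 CEACAM1-S arrays, and the call was lost with scaling to the median and in set B alone. In the fit over all probes, a second Dusp2 probe gave −0.47 in CEACAM1-S cells (adjusted p = 0.111). A second Ndufaf4 probe gave −0.32 in CEACAM1-L cells (adjusted p = 0.0671).

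**Figure D4:**
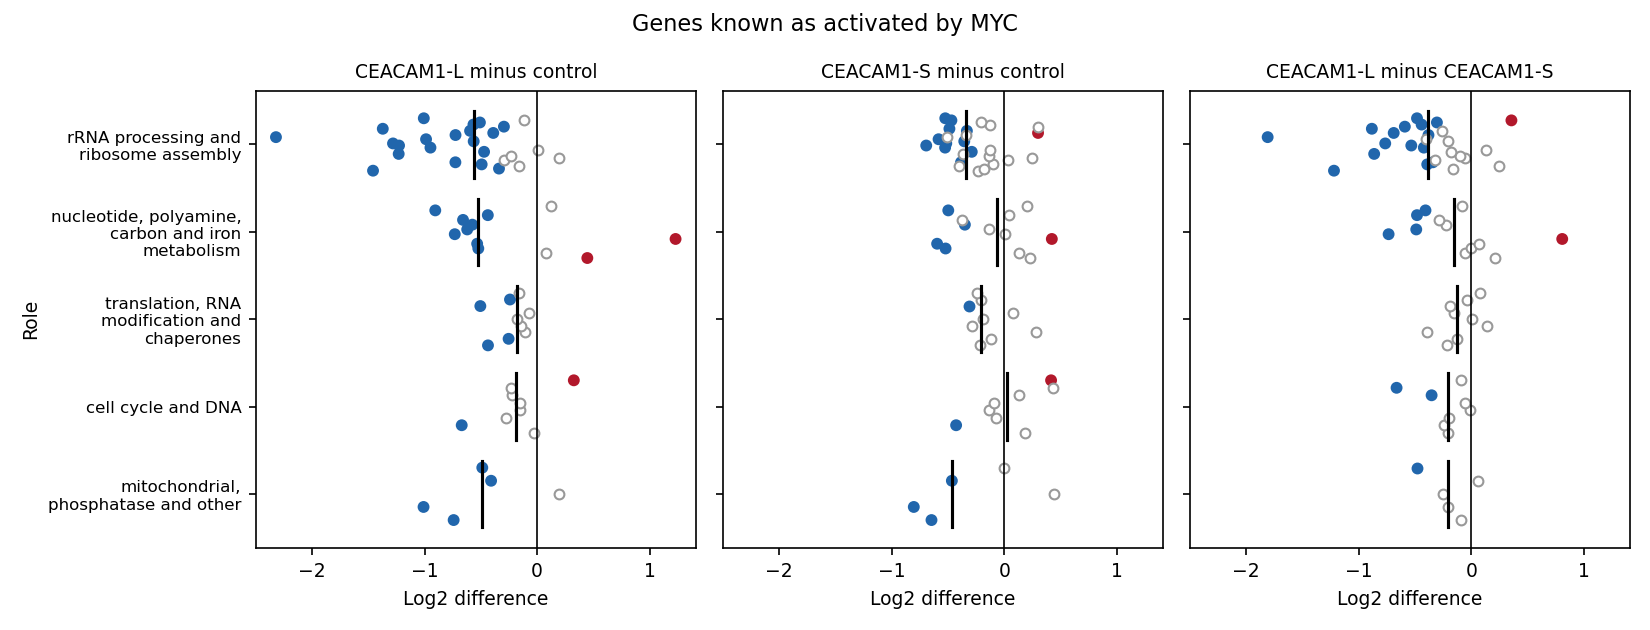
Log2 differences (horizontal axis) of the 60 tested genes known as activated by MYC, by role (vertical axis), in CEACAM1-L minus control, CEACAM1-S minus control and CEACAM1-L minus CEACAM1-S. Blue points fell and red points rose past the threshold, open points did not pass, and black lines are medians of a role. The ribosome assembly genes have medians of −0.57, −0.34 and −0.39.

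The E-box letters were then looked for in the promoter windows of this list. The motif was found in 16 of the 53 tested list genes with a window (30.2%), beside 12% of all tested genes. Among those that fell in CEACAM1-L cells it was found in 10 of 31 (32.3%), and among those that did not fall in 6 of 22 (27.3%). Of all genes that fell in CEACAM1-L cells, 13% had the motif, beside 11.8% of those that did not. These shares are descriptions and were not tested. Stretches of 4 genes that fell in CEACAM1-L cells are given as examples: Nop2, an RNA methyltransferase of the ribosome (−0.95), Imp4, a processing factor of the small subunit (−0.73), Pes1 and Ldha, whose window holds 2 motifs.
Nop2, chr6:125131783-125131863, plus strand: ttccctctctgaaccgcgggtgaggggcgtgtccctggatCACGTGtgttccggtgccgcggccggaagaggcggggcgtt
Imp4, chr1:34439669-34439749, plus strand: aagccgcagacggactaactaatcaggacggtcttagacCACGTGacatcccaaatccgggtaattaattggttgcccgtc
Pes1, chr11:3963915-3963994, plus strand: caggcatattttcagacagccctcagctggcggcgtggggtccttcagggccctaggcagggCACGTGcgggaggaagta
Ldha, chr7:46845647-46845676, plus strand: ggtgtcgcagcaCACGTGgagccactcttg
Ldha, chr7:46845744-46845773, plus strand: cggcccagcctaCACGTGggttcccgcacg

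Genes known as repressed by MYC did not move together. Of 22 in the list, 13 were tested. In CEACAM1-L cells 3 rose and 4 fell (median −0.02), in CEACAM1-S cells 2 rose and 6 fell (median 0.08), and between the CEACAM1 lines 4 were higher and 3 lower in CEACAM1-L cells (median 0.18). Pdgfrb and Ndrg2 were undetected in some lines; with them at their bounds, or at 0 where no bound could be had, these medians were 0, 0 and 0.18. The list had 53.8%, 61.5% and 53.8% of its tested genes past the threshold, where all genes had 36.2%, 23.6% and 26.2%, and they went in both directions. Ddit3, the stress factor CHOP, rose by 1.45 ± 0.13 (SE) in CEACAM1-L cells (adjusted p = 2.25e-09), and its second probe also gave 1.45. Ddit3 was higher by 0.93 in CEACAM1-L cells than in CEACAM1-S cells (adjusted p = 4.89e-06). Thbs1, the antiangiogenic matrix protein thrombospondin 1, rose by 1.18 ± 0.15 in CEACAM1-L (adjusted p = 9.75e-07) and by 1.01 ± 0.15 in CEACAM1-S cells (adjusted p = 1.70e-05).

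Others of that list fell. Klf6 fell by −1.22 ± 0.11 (SE) in CEACAM1-L cells (adjusted p = 5.91e-09). Cdkn1a, the cyclin-dependent kinase inhibitor p21, fell by −0.84 ± 0.11 in CEACAM1-S (adjusted p = 2.05e-06) and by −0.41 in CEACAM1-L cells. Ndrg1, named for its repression by N-MYC, fell by −0.87 ± 0.14 in CEACAM1-S cells (adjusted p = 3.06e-05) and by −0.91 in CEACAM1-L cells. Ndrg1 is among the 23 tested neighbours of Myc on chromosome 15. The median difference of these neighbours from control was −0.02 for CEACAM1-S and −0.15 for CEACAM1-L. The part of its position in the Ndrg1 fall was not tested. Btg1, which restrains proliferation, was higher by 0.54 ± 0.10 in CEACAM1-L cells than in CEACAM1-S cells (adjusted p = 0.00016). Ndrg2 was detected on all CEACAM1-S and on no CEACAM1-L arrays, and was at least 1.18-fold lower in CEACAM1-L cells than in CEACAM1-S cells (adjusted p = 0.0216). This did not pass without CEACAM1-S 2, CEACAM1-L 2 or CEACAM1-L 3, and the fitted difference of −0.53 ranged from −0.62 to −0.42 without 1 array at a time.

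Of the partners of MLX outside the members, Mlxip, which encodes the glucose-sensing factor MONDOA, was higher by 0.56 ± 0.15 (SE) in CEACAM1-L cells than in CEACAM1-S cells (adjusted p = 0.00576), and neither line passed against control. Mlxip lies on chromosome 5, where 29.5% of tested genes were higher between the CEACAM1 lines, beside 13.2% of all genes. Of 20 tested cofactors of MYC and its antagonists, 5 rose and 2 fell in CEACAM1-L cells and 1 rose and 2 fell in CEACAM1-S cells, or 35% and 15% of the list, beside 36.2% and 23.6% of all genes. Sin3a, the scaffold of the corepressor that MXD proteins recruit, rose by 0.57 ± 0.10 in CEACAM1-S cells (adjusted p = 7.07e-05) and by 0.40 in CEACAM1-L cells. Sin3a lies on chromosome 9, as do Ppan, Ctnnb1 and Smad3, which also rose in CEACAM1-S cells. Ets1, Rrp9, Usp28 and Cdc25a lie there too and did not pass in CEACAM1-S against control. The part of chromosome position in these rises was not tested. Sap30, another subunit of that complex, fell by −0.63 ± 0.10 in CEACAM1-S (adjusted p = 4.01e-05) and by −0.50 ± 0.10 in CEACAM1-L cells (adjusted p = 0.000319). Wdr5, through which MYC is held on chromatin, rose by 0.67 ± 0.17 in CEACAM1-L cells (adjusted p = 0.00257) and exceeded CEACAM1-S cells by 0.70. Cdk9, the kinase that releases paused RNA polymerase, rose by 0.60 ± 0.12 in CEACAM1-L cells (adjusted p = 0.000283) and exceeded CEACAM1-S cells by 0.74. Ehmt2, the histone methyltransferase G9a, was higher by 0.37 ± 0.10 in CEACAM1-L cells than in CEACAM1-S cells (adjusted p = 0.00759). A second Ehmt2 probe gave 0.25 in the fit over all probes (adjusted p = 0.108). The calls given for Mlxip, Wdr5, Cdk9 and Ehmt2 were lost with scaling to the median and in set B alone. Wdr5 and Cdk9 lie on chromosome 2, where 22% of tested genes rose in CEACAM1-L cells and 20% exceeded CEACAM1-S cells. Of all genes, 18.2% and 13.2% did. Ruvbl2, a helicase of MYC-bound chromatin complexes, fell by −0.35 ± 0.12 in CEACAM1-S cells (adjusted p = 0.0292); without control 4, CEACAM1-S 1 or CEACAM1-S 4 this did not pass, and without 1 array at a time it ranged from −0.42 to −0.25.

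Of 17 tested genes that set the stability of the MYC protein, 2 rose and 3 fell in CEACAM1-L cells and 1 rose and 2 fell in CEACAM1-S cells. These are 29.4% and 17.6% of the list, below the 36.2% and 23.6% of all genes. Fbxw7, the ubiquitin ligase subunit that marks MYC for destruction, gave −0.45 (adjusted p = 0.0563) and −0.42 (adjusted p = 0.102) and did not pass. Usp36, a nucleolar deubiquitinase that protects MYC, fell by −0.92 ± 0.17 (SE) in CEACAM1-L (adjusted p = 0.000116) and by −0.68 ± 0.17 in CEACAM1-S cells (adjusted p = 0.00409). A second Usp36 probe gave −0.45 and −0.37 in the fit over all probes (adjusted p = 0.0498 and 0.143). Trim32, a ubiquitin ligase reported to act on MYC in neural progenitors, fell by −1.04 ± 0.11 in CEACAM1-L (adjusted p = 1.14e-07) and by −0.35 ± 0.11 in CEACAM1-S cells (adjusted p = 0.0274), a difference of −0.69 between them. The CEACAM1-S call of Trim32 was lost without any 1 of control 1, 2 or 3 or CEACAM1-S 1, 2 or 3, and without 1 array at a time the difference ranged from −0.44 to −0.30. A second Trim32 probe, near the detection limit, gave −0.55 and −0.54 against control (adjusted p = 0.0308 and 0.0515). Between the CEACAM1 lines it gave −0.01 (adjusted p = 0.976). Plk1, the mitotic kinase that stabilizes MYC, rose by 0.67 ± 0.10 in CEACAM1-L (adjusted p = 7.05e-06) and by 0.55 ± 0.10 in CEACAM1-S cells (adjusted p = 0.000169). Protein levels were not measured.

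Of 23 tested genes known to act on Myc transcription or its RNA, 2 rose and 6 fell in CEACAM1-L cells, 2 rose and 3 fell in CEACAM1-S cells, and 2 were higher and 5 lower in CEACAM1-L cells than in CEACAM1-S cells. These shares of 34.8%, 21.7% and 30.4% lie near the 36.2%, 23.6% and 26.2% of all genes. Pvt1, a noncoding RNA gene next to Myc on chromosome 15, was lower in both lines, by −0.68 ± 0.17 (SE) in CEACAM1-L cells and −0.78 ± 0.17 in CEACAM1-S cells (adjusted p = 0.00282 and 0.00142). Klf4, a factor of differentiated intestinal epithelium, fell by −1.08 ± 0.12 in CEACAM1-L (adjusted p = 1.32e-07) and by −0.48 ± 0.12 in CEACAM1-S cells (adjusted p = 0.00394). In the fit over all probes, its other probes gave −0.29 and −0.36 in CEACAM1-S cells (adjusted p = 0.182 and 0.187). Tcf7l1, the Wnt repressor TCF3, rose by 0.79 ± 0.14 in CEACAM1-L cells (adjusted p = 0.000116), and Rbl1, the pocket protein p107 of the complex that represses Myc after TGF-beta, fell by −0.76 ± 0.17 there (adjusted p = 0.000815).

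Smad3, the TGF-beta effector, was lower by −0.96 ± 0.12 (SE) in CEACAM1-L cells than in CEACAM1-S cells (adjusted p = 1.81e-06), with −0.55 against control in CEACAM1-L cells and 0.41 in CEACAM1-S cells. Klf5, which promotes crypt cell growth, was higher by 0.65 ± 0.10 in the same comparison (adjusted p = 4.40e-05). Ets1 was lower in it by −0.61 ± 0.13 (adjusted p = 0.00136), a difference that did not pass with the mean of its probes. Ctnnb1, beta-catenin, rose by 0.61 ± 0.15 in CEACAM1-S cells (adjusted p = 0.00335), and its other 3 expressed probes did not pass. Tcf7l2, the main Wnt transcription factor of the colon, gave −0.10 in CEACAM1-L cells and 0.35 in CEACAM1-S cells and did not pass.

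The genes whose levels followed Myc most closely over the 12 arrays also separated control from both CEACAM1 lines. Among the other tested genes the highest Pearson correlations were those of Pxdc1 (0.976), Jun (0.964), Krt14 (0.960), Upp1 (0.958) and Alcam (0.957). Jun, a subunit of the AP-1 factor, fell from 9.88 ± 0.22 in control to 8.68 ± 0.09 in CEACAM1-S cells and 8.57 ± 0.16 in CEACAM1-L cells (SD, n = 4). Upp1, uridine phosphorylase, fell from 11.23 ± 0.15 to 9.38 ± 0.13 and 9.37 ± 0.09. Krt14, a basal epithelial keratin, and Alcam, an adhesion molecule, were detected on 4 control arrays and on 0 arrays of either CEACAM1 line. The lowest correlations were those of Tmed10 (−0.953), Pcca (−0.949), Ikbip (−0.949), Ogn (−0.948) and Pstpip1 (−0.947). Ogn, the matrix proteoglycan osteoglycin, was detected on 1 control array and on all 8 others. With 12 arrays in 3 lines, these values describe a pattern over lines that share their arrays and normalization.

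**Figure D5:**
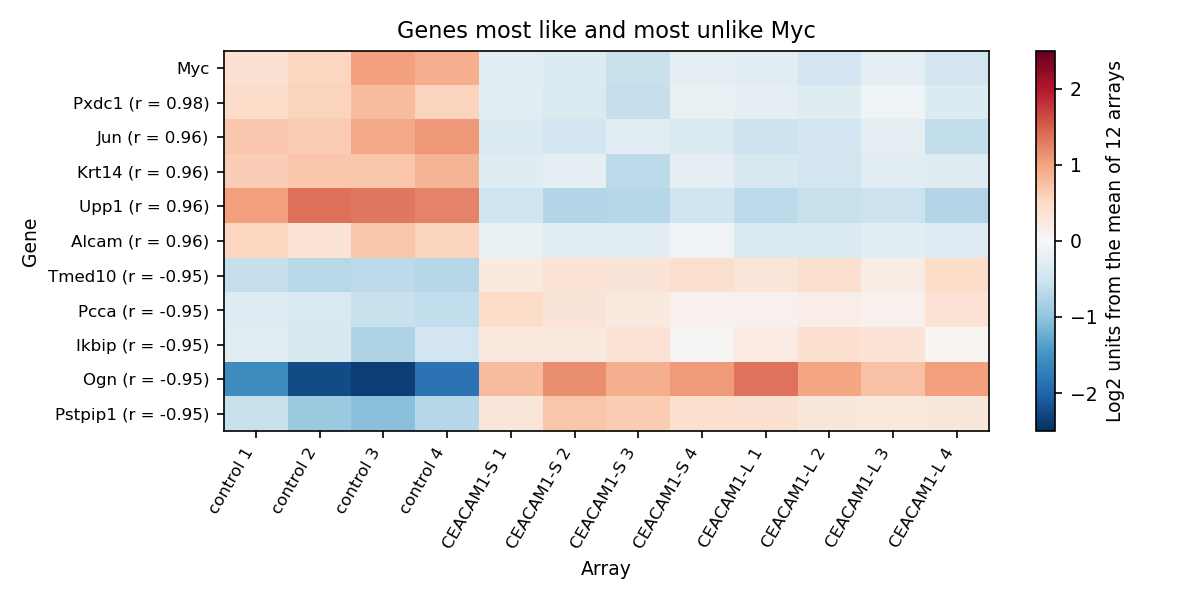
Level of Myc and of the 5 genes with the highest and the 5 with the lowest Pearson correlation to it (rows, with r) on each of the 12 arrays (columns), as log2 units from the mean of the gene's 12 arrays (colour). Control arrays are red and the other 8 blue for Myc and its likes, and the colours are turned in the lower rows, most of all in Ogn.

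Markers of other cell types moved between the lines as well. Of 8 fibroblast markers, 5 were tested, and Thy1 and Fap were detected on 0 arrays. Of the 5 tested, 4 rose in CEACAM1-L cells and 3 in CEACAM1-S cells, beside 18.2% and 12.2% of all genes. Pdgfra, which rose in CEACAM1-L cells, lies on chromosome 5, where 42.1% of tested genes rose in these cells. Pdgfrb and Col3a1 were detected on 0 control arrays, and were at least 1.37-fold and 1.36-fold higher in CEACAM1-L cells. The summed level of the 8 markers on the linear scale was 484 to 576 units in control, 1662 to 1950 in CEACAM1-S and 1491 to 1658 in CEACAM1-L cells. Dcn, the matrix proteoglycan decorin, carried most of that sum in both CEACAM1 lines, with mean levels of 7.02, 10.31 and 9.82 log2 units in control, CEACAM1-S and CEACAM1-L, while Col1a2, detected on 3 arrays, went from 4.92 to 4.69 and 4.54. Of 11 colon epithelial markers 3 were tested, and the summed level was 299 to 322 units in control, 257 to 276 in CEACAM1-S and 289 to 308 in CEACAM1-L cells. All these sums include undetected markers at their background level. Of the tested epithelial markers only Krt8 passed against control, lower by −1.03 in CEACAM1-S cells. Of 6 immune markers with a probe, Ptprc, Cd3e, Adgre1 and Itgam were detected on 0 arrays, and the sums were 299 to 360, 209 to 234 and 246 to 349 units. Cd14 alone of them passed against control, lower by −1.01 in CEACAM1-S cells. Of 6 endothelial markers, Pecam1 and Vwf were detected on 0 arrays, and the sums were 186 to 232, 147 to 162 and 135 to 155 units. Flt1 and Cdh5 alone of them passed against control, lower by −1.13 and −0.70 in CEACAM1-S cells. Both were undetected in CEACAM1-L cells, at least 2.25-fold and 1.33-fold lower than in control. Fewer cells of a type and less RNA per cell cannot be told apart in these samples, and the part of such shifts in the Myc, Mxd3 and Mxd4 values was not tested.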

How the data were processed

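RNA of 12 MC38 samples (4 per line) was measured on Illumina bead arrays; groups and replicate numbers came from the sample titles. The deposited table gives 1 signal intensity and 1 detection p-value for every probe on every array, per the file headers. The authors' processed values, deposited on a log2 scale, served as an alternative; their method was not given in the sources used here, although lumi 2.6.0 is listed in the submitters' processing notes. Of 45281 probes, 34885 had 1 gene symbol, 18 several and 10378 none, by the platform annotation; 34807 gene IDs matched GRCm38.p6.

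The neqc function of limma 3.58.1 (in R 4.3.3) was run on the intensities (offset 16, quantile normalization, log2). Probes detected at p under 0.05 on at least 4 arrays were kept (16330), and a gene's brightest kept probe, by mean over the arrays, stood for it (9100 genes). One mean per group was fitted with lmFit and eBayes with a trend; p-values are two-sided and Benjamini-Hochberg adjusted over all 9100 genes, with a threshold of 0.05, and every adjusted p given is limma's. The fit was tested on simulated data. Where a probe was detected on no array of a group, the fold is a bound against the lowest detected signal of each array. Precision is limited by the number of arrays.

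The members and the gene lists, drawn from general knowledge of MYC biology, were chosen with earlier results of these data known. Named genes are all members, up to 3 genes per list and comparison whose difference past the threshold was largest, the 5 genes most like and the 5 most unlike Myc, and Ceacam1. Alternatives covered normalization, background, detection filter, probe rule, trend, weights, blocks, array sets and leaving out each array.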

Additional observations from a re-analysis of the deposited data

Results flagged for a closer look

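Among 114 combinations of a named list gene or member and a line, 8 held an array that lay apart from the other 3 by Dixon's criterion; chance gives about 1 in 20. Mxd3 stood at 8.17 on CEACAM1-L 1 against 7.81 to 7.86 on the others, and Mga at 4.58 on CEACAM1-L 1 against 4.83 to 4.86. Rbl1 stood at 6.14 on CEACAM1-L 4 against 6.39 to 6.43, and Rrp12 at 9.04 and Ndufaf4 at 8.90 on CEACAM1-S 2 against 8.94 to 8.96 and 9.15 to 9.20. Klf6 at 11.71 and Ctnnb1 at 9.79 on control 1 lay above 11.27 to 11.32 and 9.12 to 9.18, and Bop1 at 7.60 on control 3 lay below 8.12 to 8.20. The genes below passed the limma test between CEACAM1-L and CEACAM1-S cells, as 26.2% of all genes did. Many were named for a large difference in that comparison, so their number shows nothing.

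CEACAM1-L exceeded CEACAM1-S by 0.56 in Mlxip, 0.70 in Wdr5, 0.74 in Cdk9, 0.37 in Ehmt2, 0.45 in Tcf7l1 (adjusted p = 0.0204), 0.65 in Klf5, 0.93 in Ddit3, 0.43 in Cdkn1a (adjusted p = 0.00407) and 0.54 in Btg1. CEACAM1-L lay below CEACAM1-S by −0.69 in Trim32, −0.59 in Klf4 (adjusted p = 0.000575), −0.61 in Rbl1 (adjusted p = 0.00822), −0.54 in Ctnnb1 (adjusted p = 0.0081), −0.96 in Smad3 and −0.61 in Ets1. It also lay below by −1.81 in Pes1, −1.22 in Bop1, −0.88 in Rrp12, −0.53 in Nop56, −0.52 in Klf6 (adjusted p = 0.00109) and −0.53 in Ndrg2, the last beneath detection in CEACAM1-L cells. In the limma fit over all probes, the other Cdkn1a probes gave 0.09 (adjusted p = 0.739) and 0.44 (adjusted p = 0.0256) in this comparison. The other expressed Ctnnb1 probes gave −0.20, 0.01 and −0.18 and did not pass.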

How the results depend on the processing

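Myc in CEACAM1-L against control passed under all 24 alternatives, from −1.20 to −0.71 (highest adjusted p = 0.0145); without 1 array at a time it ran from −1.19 to −0.97, and in CEACAM1-S cells from −1.18 to −0.96. Scaling to the median changed most: 1 member passed in CEACAM1-L (Myc) and 0 in CEACAM1-S cells, Myc in CEACAM1-S gave −1.09 (adjusted p = 0.0611), the MYC-activated list had 14, 0 and 2 calls in the order L against control, S against control, L against S, and the MYC-repressed list 0 in CEACAM1-S and 0 between the CEACAM1 lines. Over all genes it left 637 calls in CEACAM1-L against control, 39.6% of them higher, 276 in CEACAM1-S against control and 293 between the CEACAM1 lines, 41.6% of them higher, against 3290, 2148 and 2382. The cause was not tested.

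In set B alone the MYC-activated list had 26, 4 and 11 calls and the repressed list 1 between the CEACAM1 lines, while set A, with as many arrays, gave 41, 21 and 25 and 7. Over all 9100 genes the calls were 1678, 893 and 677 in set B and 3217, 1936 and 2573 in set A. The cause was not tested. Between the CEACAM1 lines 1 member, Mxd4, passed without background correction, with probes detected on all 12 arrays, in the authors' values, with probes averaged per gene, without trend, with the array set as a block, and without CEACAM1-S 1 or CEACAM1-L 4. Without 1 array at a time the members called ran from 3 to 4, 2 to 2 and 0 to 1, the activated list from 33 to 40, 18 to 25 and 20 to 25, and the repressed list from 7 to 8, 8 to 9 and 5 to 7. Mxd4 in CEACAM1-S cells passed with array weights (0.38, adjusted p = 0.0392).

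For the other named list genes, 1038 of 1102 comparisons with an alternative kept direction and call, 62 lost the call, 2 gained it and 0 reversed. Arrays with the same replicate number correlated in their deviations at −0.20 to 0.19 over 12 pairs, with 0 arrays closest to their own number in both other lines. Each CEACAM1-S array lies in the other set from the control and CEACAM1-L arrays of its number. The set difference thus weighed against such matches, and whether the numbers pair the samples could not be told. Arrays of the same set correlated at 0.04 to 0.26 and those of different sets at −0.27 to −0.03, over 24 pairs each, and with the set as a block Mxd4 between the CEACAM1 lines had an adjusted p of 0.0417. With the replicate number as a block, 3154, 1972 and 2250 genes passed, and Myc gave −1.08 and −1.07 against control in CEACAM1-L and CEACAM1-S. Genes under the detection limit could not be compared.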
